A study of Mus musculus with 7 samples.

Results

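The genes described here encode the pore-forming and modulatory subunits of voltage-gated potassium channels (Kv channels), measured by mRNA sequencing in hippocampal synaptoneurosomes of wild-type female C57Bl/6J mice. Synaptoneurosomes are a biochemical fraction of brain tissue enriched for nerve endings that have resealed together with the postsynaptic compartment they contact. One group of 4 libraries (replicates B, D, E and F) came from mice that received AM6545 sub-chronically, and the other group of 3 libraries (replicates B, D and E) from mice that received vehicle. AM6545 blocks the cannabinoid receptor encoded by Cnr1 and enters the brain poorly. The labels state neither the dose, the duration, the age of the mice nor how many mice were pooled in a library. They also do not say that the replicates came from separate animals, so the p-values below measure the spread between these 7 libraries, which may be technical. Members were taken by gene symbol from the subfamilies Kcna, Kcnb, Kcnc, Kcnd, Kcnf, Kcng, Kcnh, Kcnq, Kcns and Kcnv. Of 22248 genes in the deposited table, 40 carried such a symbol, and the 34 with a mean of at least 10 counts over the 7 libraries are the members. All 34 passed the low-count filter of the test. The member just inside the minimum was Kcnh6 with a mean of 17 counts, and the gene just outside was Kcnq1 with 8.0. The other genes left out were Kcnh8, Kcng3, Kcna10, Kcnv2 and Kcna7, with 7.43 counts at most.

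A Kv channel is built from a ring of pore-forming subunits, each with a voltage-sensing part and a pore part, and it opens when the membrane is depolarised. Its potassium current repolarises the action potential, sets the interval between spikes and limits transmitter release from nerve endings. The subfamilies divide this work. Kcna (Kv1) channels sit in axons and terminals, and Kcnb (Kv2) channels in clusters on the soma and proximal dendrites. Kcnc (Kv3) channels allow fast spiking, Kcnd (Kv4) channels carry the A-type current of dendrites, and Kcnq (Kv7) channels carry the M-current. Kcnh genes encode the ether-a-go-go family. Products of Kcnf, Kcng, Kcns and Kcnv are electrically silent: they form no channel alone and join Kcnb subunits to modify them.

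The most conserved stretch of these genes codes for the selectivity filter, the narrow part of the pore that admits potassium. It is shown because it sets the Kcnh genes apart from the other subfamilies. Below are 24 coding bases around the filter for 5 members that the results turn on, taken from the GENCODE M21 transcripts (build GRCm38). Capitals mark the 3 signature codons.
Kcna2 (chr3:107105221-107105244, + strand): acaactgtaGGCTATGGAgacatg
Kcnc1 (chr7:46427970-46427993, + strand): acgacactgGGCTATGGAgacatg
Kcnd2 (chr6:21217403-21714147, + strand, spliced across 2 exons): acaacactgGGGTATGGCgacatg
Kcnh3 (chr15:99232926-99232949, + strand): accagtgtgGGCTTCGGCaacgtg
Kcnv1 (chr15:45109283-45109306, - strand): actacagtaGGATATGGGgacatt
The window was extracted for 29 members. In 22 of them the capitals code for glycine-tyrosine-glycine, the electrically silent Kcnv1 included. The 7 Kcnh members code for glycine-phenylalanine-glycine.

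The libraries held 19174649 to 25894733 estimated counts, and the members together took 0.127% to 0.158% of them. The vehicle library with replicate letter B stood apart from the rest. Its score on the first principal component, which held 39.9% of the variance, was 36.1, against -19.1 to 10.04 in the other 6. Mitochondrially encoded genes took 9.83% of its counts and 5.07% to 6.66% elsewhere. Vehicle B was the highest vehicle library for 17 of the 34 members and the highest of all 7 libraries for 12. The same counts over all genes are not given here, so these are not shown to be particular to the members. Values without it are given where leaving it out moved a named fold change or a count strongly. Markers of inhibitory neurons, excitatory neurons, astrocytes, microglia, oligodendrocytes, vessels, choroid plexus, dentate gyrus, CA1 and CA3 were all detected, with none at 0. Only the summed level of the 4 CA1 pyramidal cell markers separated the groups, at 551 to 630 CPM with AM6545 and 640 to 669 CPM with vehicle, where CPM are counts scaled to one common library size with TMM factors. Its part in the results below was not tested. In such a bulk fraction, fewer parts of one cell type and less RNA per cell cannot be told apart.

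Levels were compared between genes per length, as CPM divided by the count-weighted transcript length in kilobases. The highest mean level over the 7 libraries was that of Kcnc1, which encodes a fast-spiking Kv3 subunit, at 36.8 CPM per kilobase. Kcng2, a silent subunit gene, followed at 28.5, then Kcnh3 of the ether-a-go-go family at 25.3 and the axonal Kv1 gene Kcna1 at 25.3. Kcnd2, a gene of the dendritic A-type current, was at 18.5 on the same scale and Kcnc2 at 12.7. The first 4 genes held 36.0% of the summed level of the 34 members. The lowest was Kcnh6 at 0.213 CPM per kilobase, and Kcnh4, Kcna5 and Kcnh5 were also below 1. Neighbours in this order were mostly not distinct. Of 33 neighbouring pairs, 30 had overlapping ranges over the libraries, and 3 were separate, among them Kcnd2 above Kcnc2 and Kcnb2 above Kcnh7. Kcnc1 was above Kcng2 within each of the 7 libraries, but its place depends on transcript length. With the longest annotated transcript of each gene its level was 16.0 CPM per kilobase and Kcng2 and Kcnh3 ranked first and second, while the order of all 34 genes stayed close (Spearman's rho 0.980 across genes, n = 34).

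**Figure D1:**
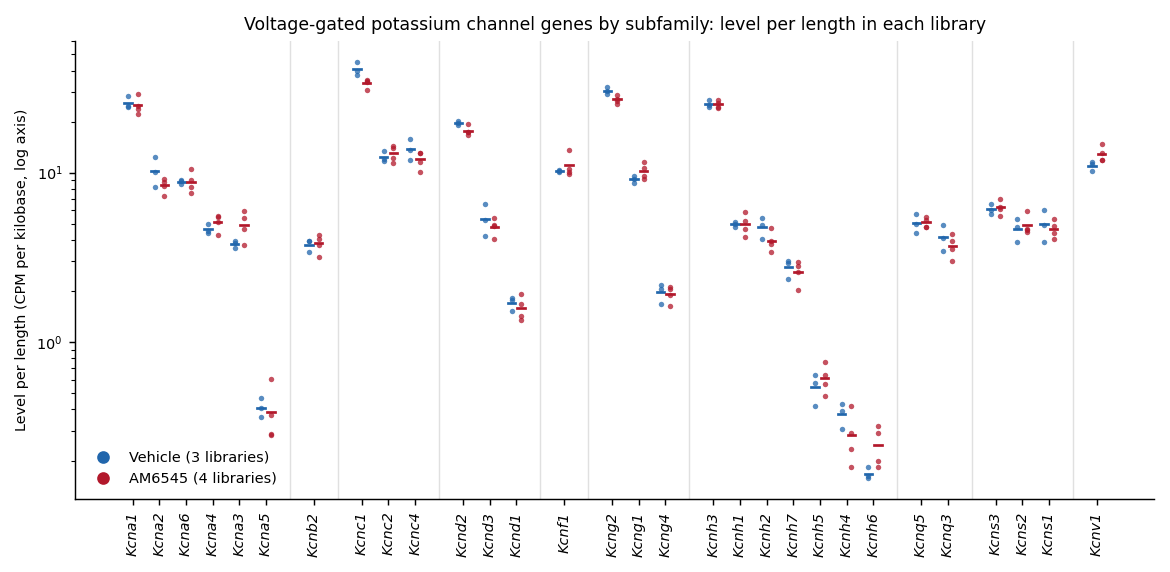
Each point is 1 library's level of 1 gene per length (CPM per kilobase, log axis), vehicle in blue and AM6545 in red, with a short line at the group mean; genes are grouped by subfamily. Levels span from 0.213 CPM per kilobase for Kcnh6 to 36.8 for Kcnc1 as means over all 7 libraries, and the colours overlap for most genes.

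Summed by subfamily, the 4 Kcnc genes held the largest share of the per-length level, 25.8% on average over all libraries. The 6 Kcna genes held 16.5%, the 3 Kcng genes 12.5%, the 7 Kcnh genes 11.96% and the 4 Kcnq genes 9.52%. Kcnd (7.82%), Kcns (4.91%), Kcnb (3.85%), Kcnv (3.77%) and Kcnf (3.33%) made up the rest. The 8 electrically silent subunit genes together held 24.5%, with Kcng2 the most abundant among them. Between groups, the Kcnc share was 24.5%, 25.6%, 24.3% and 25.6% with AM6545 (replicates B, D, E and F) and 28.7%, 26.2% and 25.8% with vehicle (B, D and E). The groups did not overlap, although AM6545 D and F came close to vehicle E, and vehicle B was highest. The Kcnv share, which is Kcnv1 alone, was 4.47%, 3.81%, 4.39% and 3.92% with AM6545 and 3.20%, 3.08% and 3.54% with vehicle, again without overlap. The Kcnd share was also lower in all AM6545 libraries, at 7.54% to 7.92% against 7.93% to 7.94%, and the other 7 subfamilies overlapped. Shares of a sum move together, and as levels only Kcnv separated the groups. The summed level of all 34 members was 311 ± 19.2 CPM per kilobase with AM6545 (SD, n = 4) and 337 ± 21.9 with vehicle (SD, n = 3), with overlapping ranges.

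AM6545 was then compared with vehicle gene by gene, which asks whether the treatment came with other amounts of channel mRNA in the synaptic fraction. No member passed the adjusted threshold: 0 of 34 had an adjusted p under 0.05 by edgeR's quasi-likelihood test, where 0.00682% of all 14654 genes tested did. DESeq2 and limma-voom with quality weights also called 0 members, and 1.4% and 0.805% of all genes. At an unadjusted p under 0.05, edgeR listed 5 of the 34 members (14.7%), against 14.6% of all genes, so the members' share was near the background. Of these, 4 were lower with AM6545, Kcnc1 among them (background 8.7%), and Kcna3 was higher (background 5.86%). DESeq2 gave 5 members at the same unadjusted threshold (background 14.2%), and limma-voom gave 10, where 24.1% of all genes also met it. Groups did not overlap for 6 members (17.6%), against 13.8% of all genes: 4 were lower in every AM6545 library, Kcnc1 and Kcng2 among them (background 7.19%), and Kcnv1 and Kcnh6 higher (6.63%). With scaling to total counts in place of TMM, Kcnv1 was the only such member. More members lay below 0 than above, 22 of 34 (64.7%) against 48.6% of all genes. The median log2 fold change of AM6545 over vehicle was -0.07, against 0.01 for all genes, and 13 members lay within 0.1 of 0. Kcnh6 had the highest fold change, at 0.57, and adjusted p-values from edgeR ranged from 0.245 to 0.990.

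**Figure D2:**
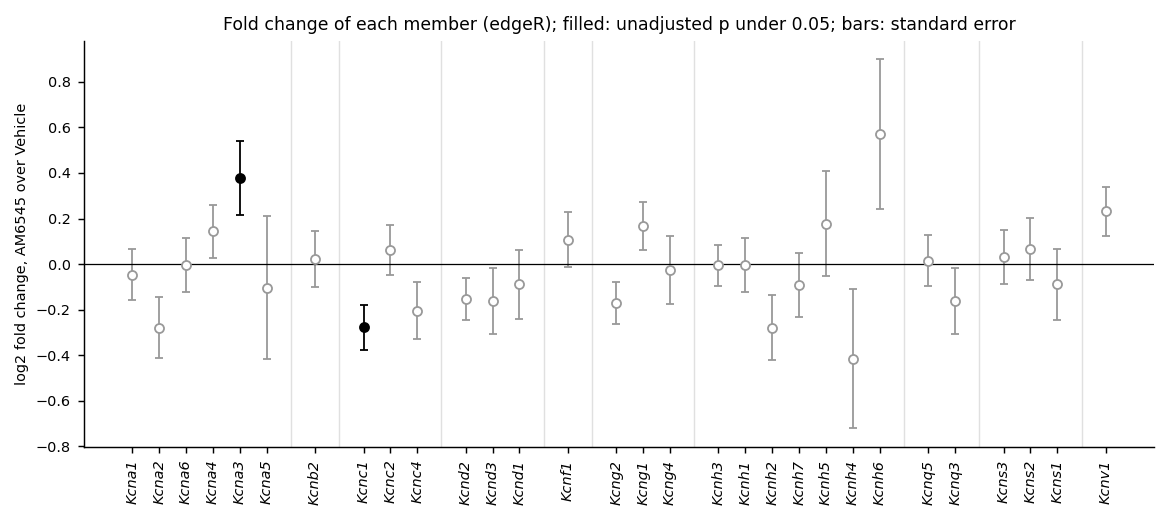
The vertical axis is the log2 fold change of AM6545 over vehicle from edgeR for each gene, grouped by subfamily, with bars of 1 standard error; filled points have an unadjusted p under 0.05. The filled point below 0 is Kcnc1, the filled point above 0 is Kcna3, and the widest bars belong to the genes with the fewest counts, such as Kcnh6.

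These counts depended on which vehicle libraries were in the fit. Without vehicle B, 1 member had an unadjusted p under 0.05 by edgeR (background 6.46%), and the median log2 fold change was -0.04. That member was Kcnv1, which was higher with AM6545 (edgeR unadjusted p = 0.0367, adjusted p = 0.746). None of the members listed with all libraries met the unadjusted threshold in that fit, Kcnc1 and Kcna3 included. Without vehicle E, 3 members passed the adjusted threshold by edgeR. In that fit 944 of 14807 genes (6.38%) passed as well (4.07% in the lower direction), and vehicle B and D were the only vehicle libraries left.

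Among the Kcna genes, whose products are the low-threshold channels of axons and terminals, Kcna1, Kcna2, Kcna3 and Kcna4 were named by rule. Kcna1, mutated in episodic ataxia, had 86.8, 90.8, 108 and 82.0 CPM with AM6545 (replicates B, D, E and F) and 89.2, 104 and 91.2 CPM with vehicle (B, D and E). Its groups overlapped fully and its log2 fold change was -0.05 ± 0.11 (SE). Kcna2, its usual partner in axonal channels, had 71.3, 82.1, 86.8 and 90.6 CPM with AM6545 and 121, 99.4 and 80.4 CPM with vehicle. Vehicle B and D exceeded every AM6545 library, and vehicle E lay within their range. The log2 fold change of Kcna2 was -0.28 ± 0.14 (SE, edgeR adjusted p = 0.368), and -0.12 without vehicle B.

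Kcna3, a gene best known from lymphocytes and microglia and also present in nerve terminals, was the one member listed in the upward direction. It had 7.09, 10.3, 11.3 and 8.79 CPM with AM6545 and 7.33, 6.81 and 7.47 CPM with vehicle. AM6545 B lay among the vehicle libraries and the other 3 lay above them. The log2 fold change was 0.38 ± 0.16 (SE), with an unadjusted p of 0.0371 and an adjusted p of 0.315 by edgeR. Summed microglial markers were at 403 to 440 CPM with AM6545 and 389 to 514 CPM with vehicle, so they overlapped. Singly, 3 of the 5 markers were lower with AM6545 and 2 higher, with a median log2 fold change of -0.04. Whether microglial content bears on Kcna3 was not tested. Kcna4, the inactivating Kv1 subunit, had a log2 fold change of 0.14 ± 0.12 (SE, edgeR adjusted p = 0.569), which was 0.02 when each library's dependence on GC content and transcript length was removed (below, the GC and length correction). Kcna5 and Kcna6 lay at -0.10 and -0.00.

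Kcnb2 encodes a Kv2 delayed-rectifier subunit, the kind of channel that silent subunits join. It had 17.6, 20.7, 23.7 and 22.5 CPM with AM6545 and 18.8, 21.8 and 21.8 CPM with vehicle. AM6545 B was the lowest library and the groups overlapped. For Kcnb2 the log2 fold change was 0.02 ± 0.12 (SE, edgeR adjusted p = 0.945).

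Kcnc genes encode the Kv3 subunits that let neurons fire at high rates. Kcnc1 (chr7:46396497-46438704, plus strand) had 103, 115, 119 and 117 CPM with AM6545 and 153, 134 and 126 CPM with vehicle. Every AM6545 library was below every vehicle library, with AM6545 E and vehicle E closest. Its log2 fold change was -0.28 ± 0.10 (SE), with an unadjusted p of 0.0162 and an adjusted p of 0.261 by edgeR. It was -0.20 without vehicle B and -0.28 with the GC and length correction. Kcnc4 had 37.2, 47.7, 47.98 and 42.4 CPM with AM6545 and 57.98, 50.1 and 43.3 CPM with vehicle. Vehicle E lay within the AM6545 range, and the log2 fold change was -0.20 ± 0.13 (SE, edgeR adjusted p = 0.460), or -0.09 without vehicle B. Kcnc2, expressed in interneurons, was at 0.06 ± 0.11 (log2, SE). Summed markers of inhibitory neurons, where Kv3 channels are abundant, overlapped between groups at 650 to 739 CPM with AM6545 and 667 to 744 CPM with vehicle. Of the 7 markers, 5 were lower with AM6545 and 2 higher, with a median log2 fold change of -0.13. Whether this bears on the Kcnc genes was not tested.

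Kcnd2, which encodes the dendritic A-type subunit of hippocampal pyramidal cells, had 85.5, 89.7, 99.3 and 89.7 CPM with AM6545 and 104, 101.6 and 98.1 CPM with vehicle. Only AM6545 E reached into the vehicle range. Its log2 fold change was -0.15 ± 0.09 (SE, edgeR adjusted p = 0.452), and -0.26 with the GC and length correction, under which its groups no longer overlapped and its unadjusted p was 0.0054 (edgeR adjusted p = 0.715). With limma-voom its unadjusted p was 0.0358 (adjusted p = 0.181). Kcnd3, the A-type subunit more typical of interneurons, had a log2 fold change of -0.16 ± 0.14 (SE, edgeR adjusted p = 0.602), which was 0.01 without vehicle B. The low-level gene Kcnd1 was at -0.09, so all 3 Kcnd genes lay below 0 with all libraries, and none met the unadjusted threshold by edgeR without that correction. Leaving out vehicle E gave Kcnd3 an unadjusted p of 0.0365 by edgeR.

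Kcnq genes encode M-channel subunits, which muscarinic receptors close and which hold neurons back from repeated firing. Kcnq3 had 35.5, 47.0, 42.0 and 51.2 CPM with AM6545 and 58.1, 48.6 and 40.5 CPM with vehicle. The groups overlapped, with vehicle B highest and AM6545 B lowest. Its log2 fold change was -0.16 ± 0.15 (SE, edgeR adjusted p = 0.613), and -0.02 without vehicle B or with the GC and length correction. Kcnq5, a further M-current subunit of the hippocampus, had 30.5, 33.5, 34.997 and 30.3 CPM with AM6545 and 36.1, 31.6 and 28.1 CPM with vehicle. All AM6545 libraries lay within the vehicle range, and its log2 fold change was 0.02 ± 0.11 (SE). Kcnq5 shares exonic bases with Gm26580 on the opposite strand. Use of strand in counting is not given in the sources used here. Whether reads from the shared bases were told apart is therefore not known.

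Of the 7 Kcnh genes, the most abundant was Kcnh3, a forebrain gene of the ether-a-go-go family. It had 90.1, 94.5, 98.4 and 88.6 CPM with AM6545 and 89.6, 98.2 and 91.8 CPM with vehicle. These ranges were nearly the same, and the log2 fold change was -0.01 ± 0.09 (SE). Kcnh3 shares exonic bases with Mcrs1 on the opposite strand, as do Kcnh7 with Gca, Kcnd3 with Kcnd3os and Kcna6 with Gm26673. Kcnh1 was likewise at -0.00 ± 0.12, and Kcnh7 at -0.09 ± 0.14 (log2, SE). Kcnh2, the gene of the cardiac and neuronal ERG channel, had 12.1, 11.4, 14.4 and 10.4 CPM with AM6545 and 16.5, 14.9 and 12.4 CPM with vehicle. AM6545 E exceeded vehicle E, and the log2 fold change was -0.28 ± 0.14 (SE, edgeR adjusted p = 0.387), or -0.18 without vehicle B. Kcnh6 was higher in every AM6545 library, at 0.606 to 1.07 CPM against 0.523 to 0.605 CPM, so the nearest libraries were almost level. The groups overlapped with DESeq2, upper-quartile or total-count scaling and without vehicle B. These values rest on 10 to 28 counts per library, and its log2 fold change of 0.57 ± 0.33 had an adjusted p of 0.435 by edgeR. Kcnh4 and Kcnh5, also of few counts, were at -0.42 ± 0.31 and 0.18 ± 0.23 (log2, SE).

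The 8 electrically silent subunit genes lay around 0, with 5 above and 3 below it and a median log2 fold change of 0.05. The 26 channel-forming genes had 7 above and 19 below and a median of -0.10, which was -0.05 without vehicle B and -0.18 without vehicle E. This difference was not tested. Kcng2, the most abundant silent subunit gene, had 75.6, 79.6, 70.7 and 73.4 CPM with AM6545 and 83.5, 80.5 and 88.5 CPM with vehicle. AM6545 D came close to vehicle D, and no library crossed between groups. The log2 fold change of Kcng2 was -0.17 ± 0.09 (SE, edgeR adjusted p = 0.410), and -0.05 with the GC and length correction. Kcng2 overlaps D330025C20Rik on the opposite strand.

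Kcnv1, which encodes a silent subunit that suppresses Kv2 and Kv3 currents, went the other way. Its levels were 51.0, 46.9, 57.9 and 46.9 CPM with AM6545 and 45.1, 40.3 and 44.0 CPM with vehicle. All AM6545 libraries were above all vehicle libraries, and this separation held with TMM, total-count, DESeq2 and upper-quartile scaling. The log2 fold change was 0.23 ± 0.11 (SE, edgeR adjusted p = 0.345). With the GC and length correction it was 0.01, for a gene whose transcripts have a GC content of 41.8%. Kcnf1 was at 0.11 ± 0.12, Kcns3 at 0.03 ± 0.12 and Kcns1 at -0.09 ± 0.15 (log2, SE), all with overlapping groups. The 12 members outside the rule for named genes had log2 fold changes from -0.42 (Kcnh4) to 0.57 (Kcnh6), 7 below 0 and 5 above.

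**Figure D3:**
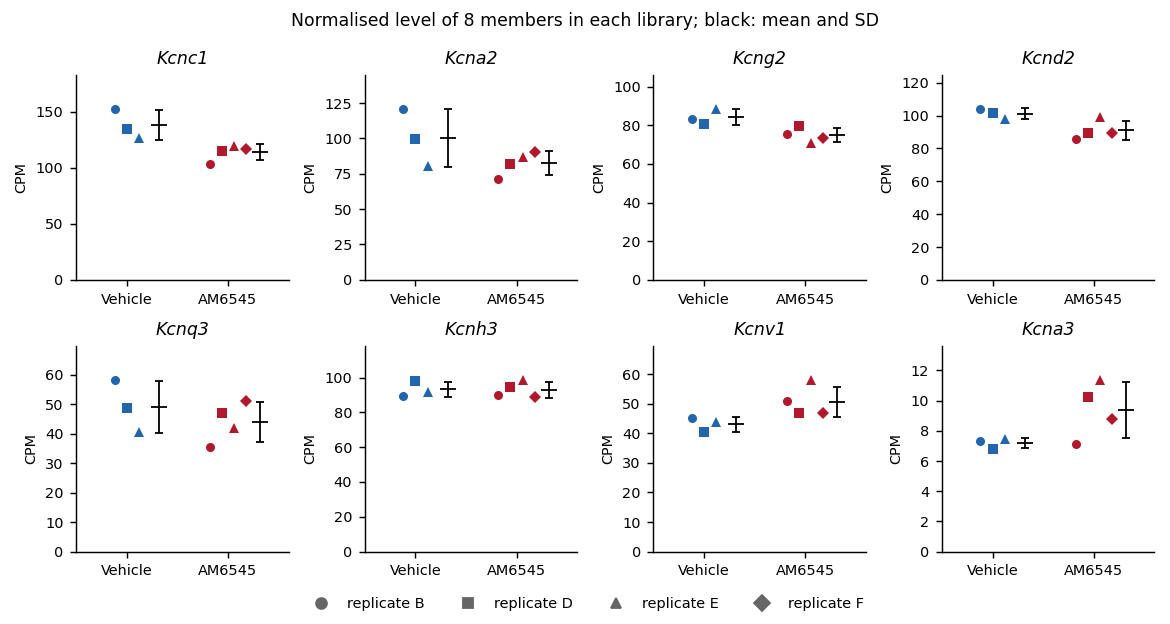
Each panel gives the CPM of 1 gene in the 3 vehicle (blue) and 4 AM6545 (red) libraries, with the replicate letter as symbol and the mean and SD in black; each axis starts at 0. Vehicle B (circle) is the highest vehicle library for Kcnc1, Kcna2, Kcnd2, Kcnq3 and Kcnv1. Kcnv1 is the panel with all AM6545 libraries above the vehicle libraries.

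Fold changes were also set against the GC content of the members' transcripts, in which the groups differed over all genes. Each library had its own trend of level with GC content across all genes. Per 10 percentage points of GC content, the log2 level of a gene against its mean changed by -0.12 to -0.03 in AM6545 libraries and by 0.05 to 0.13 in vehicle libraries, most in vehicle B. Across the 34 members, Spearman's rho of GC content and log2 fold change was -0.27, and across 14633 genes it was -0.42; these genes share the same libraries, and the values are descriptions. Of the 17 members with the higher GC content, 13 lay below 0, with a median log2 fold change of -0.10. In the 17 with the lower GC content 9 lay below 0, with a median of -0.00. With the GC and length correction these medians were -0.05 and -0.06. Under that correction 3 members had an unadjusted p under 0.05 by edgeR (background 6.87%), and groups did not overlap for Kcna3, which was higher, and Kcnd2, which was lower. The share of all genes without overlap under that correction is not given here, so this separation has no background beside it.

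**Figure D4:**
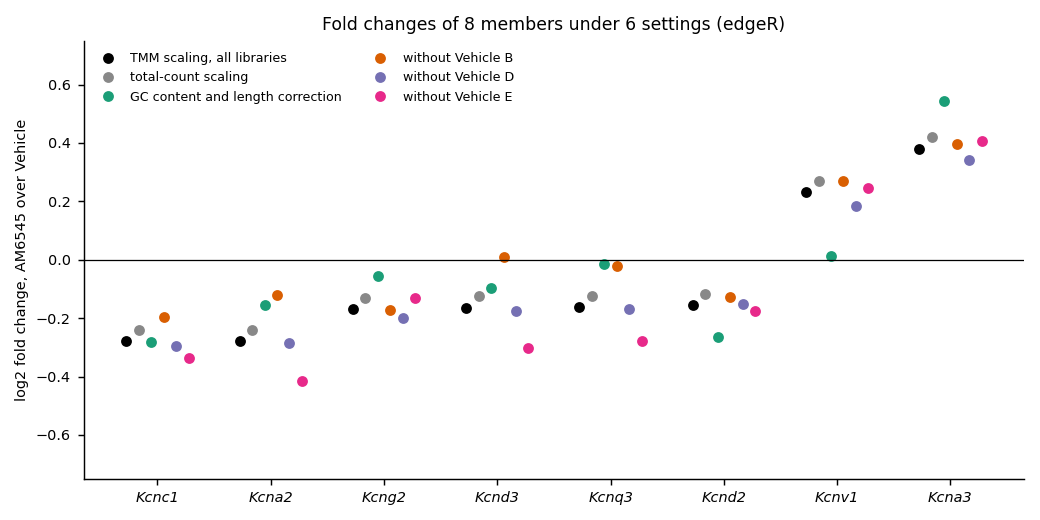
The vertical axis is the log2 fold change of AM6545 over vehicle from edgeR for 8 genes under 6 settings, 1 colour each. Kcna2 ranges from -0.41 without vehicle E to -0.12 without vehicle B, Kcnv1 lies at 0.01 with the GC and length correction, and Kcnd3 at 0.01 without vehicle B.

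Several members are made as alternative transcripts that differ in their coding end. For Kcnc1 the short form is known as Kv3.1a and the long form as Kv3.1b, and the long C-terminal end is the one known for axonal targeting and phosphorylation. The Kcnc1 ends are shown because the long form was lower in every AM6545 library. The first 15 bases, in lower case, are shared, and capitals begin where the coding sequences part; spliced sequences are given with the span of their exons on the plus strand of GRCm38.
Kcnc1-201 (chr7:46428265-46428311): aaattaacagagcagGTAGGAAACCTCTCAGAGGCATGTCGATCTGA
Kcnc1-203 (chr7:46428265-46435202, 2 exons): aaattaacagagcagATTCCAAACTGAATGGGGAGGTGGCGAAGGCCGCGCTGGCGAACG
The Kcnc1 forms share their first 1504 coding bases. Kcnc1-201 then reads on past the splice site and stops after 511 codons, and Kcnc1-203 goes on to 585.

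Of 117 annotated transcripts of the members, 70 were tested, and these covered all 34 genes. None had an adjusted p under 0.05 by edgeR (background 0.0177%), and the smallest adjusted p was 0.559. The transcript test finds few changes: in simulated data it recovered 26% of 200 changed transcripts, and 15% of those with a log2 fold change of 1 in size. Transcripts without a call may therefore still differ. At an unadjusted p under 0.05, edgeR listed 6 of 70 (8.57%, background 8.39%), all lower with AM6545 (background 4.5%). Kcnc1-203, the long form, had 37.0, 38.2, 46.4 and 43.9 CPM with AM6545 and 60.1, 49.4 and 50.2 CPM with vehicle. All AM6545 libraries were below all vehicle libraries. Its log2 fold change was -0.36 ± 0.12 (SE), with an unadjusted p of 0.0174 and an adjusted p of 0.559 by edgeR. The short form Kcnc1-201 was at -0.25 ± 0.10 (log2, SE), so both forms lay below 0. In the upward direction, Kcnv1-201 was at 0.23 ± 0.10, Kcna3-201 at 0.39 ± 0.19 and Kcnh6-201 at 0.85 ± 0.43 (log2, SE).

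For 18 members with at least 2 tested transcripts, the share of the longer of the 2 most counted transcripts was taken per length; this description was added after the data were seen. The groups did not overlap for 2 of the 18, against 8.86% of 8686 genes, and in both the longer form had the lower share with AM6545 (background 4.52%; the longer form was higher in 4.34%). For Kcnc1 the longer transcript is Kcnc1-201 (7760 bases, against 3156 for Kcnc1-203), although it encodes the short form. Its share overlapped, at 39.2% ± 2.59 (SD, n = 4) with AM6545 and 37.3% ± 1.94 (SD, n = 3) with vehicle. Kcna2-201 (11582 bases) and Kcna2-203 (4370 bases) have the same 1500-base coding sequence and differ outside it. Kcna2-201 took 61.7%, 74.4%, 56.7% and 76.5% of the pair with AM6545 and 100%, 87.8% and 70.6% with vehicle. Vehicle B and D were highest, and vehicle E lay within the AM6545 range. For Kcnh2 the longer form took 53.3% ± 12.7 (SD, n = 4) with AM6545 and 36.1% ± 7.93 (SD, n = 3) with vehicle, with overlap between AM6545 B and the vehicle libraries. Such shares rest on estimated assignment of reads that both transcripts share.

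The partner proteins of Kv channels were read from a separate list of 19 genes in the table, of which 18 were tested. None had an adjusted p under 0.05 by edgeR. At an unadjusted p under 0.05 edgeR listed 1 higher and 1 lower (11.1% of 18, against 14.6% of all genes), and the median log2 fold change was -0.02. Kcnip4, a calcium-binding partner of Kcnd channels, had 51.6, 49.99, 48.5 and 56.8 CPM with AM6545 and 37.9, 47.6 and 44.6 CPM with vehicle. It was higher in every AM6545 library, at a log2 fold change of 0.25 ± 0.11 (SE, edgeR adjusted p = 0.315), and was the one partner gene without overlap (5.56% of 18, against 13.8% of all genes). Its fold change was 0.17 without vehicle B and 0.08 with the GC and length correction. Cntn2, an adhesion protein that clusters Kcna channels on axons, had 36.3, 42.0, 47.2 and 45.8 CPM with AM6545 and 59.9, 58.8 and 43.9 CPM with vehicle. Vehicle E lay inside the AM6545 range, and the log2 fold change was -0.34 ± 0.13 (SE, edgeR adjusted p = 0.277). It was -0.47 without vehicle E (edgeR adjusted p = 0.0361), -0.26 without vehicle B and -0.15 with the GC and length correction. Its partner Cntnap2 was at -0.22 ± 0.12 and the synaptic Kv1-complex gene Adam23 at -0.18 ± 0.11 (log2, SE). Without vehicle B both were at -0.09, and with the GC and length correction they were at -0.43 and -0.29. Kcnab1, a beta subunit that inactivates Kcna channels, had 131, 117, 112 and 122 CPM with AM6545 and 74.8, 99.98 and 129 CPM with vehicle. Vehicle E was within the AM6545 range and vehicle B far below it. The log2 fold change of Kcnab1 was 0.25 ± 0.15 (SE, edgeR adjusted p = 0.452), 0.47 without vehicle E (edgeR adjusted p = 0.0441) and 0.08 without vehicle B or with the GC and length correction. Kcnip4 and Kcnab1 each share exonic bases with opposite-strand genes. The low-level gene Kcne3 was at 0.81 ± 0.48 (log2, SE), on 73 counts over all libraries.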

How the data were processed

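Messenger RNA was sequenced in 7 libraries, and the authors deposited estimated counts per gene and per transcript, with no scaling; 83.5% of the gene values above 0 were not whole. The submitters' processing notes name Salmon 1.5.2 and mm10, without a role; the annotation release and whether counting used strand are not given in the sources used here. Symbols, lengths, GC content, coordinates and coding sequences come from GENCODE M21 (GRCm38), which held 22148 of the gene identifiers; 22135 of those carried a higher version in the deposited table, so gene models used in counting may differ. Counts were rounded and tested with edgeR 4.0.16 (R 4.3.3; TMM, filterByExpr, robust quasi-likelihood fit, no covariate) over all genes or transcripts, with Benjamini-Hochberg adjustment. Standard errors are approximate: the absolute log2 fold change over sqrt(F). Fold changes are AM6545 over vehicle. CPM values are TMM-scaled. The median coefficient of variation between libraries, from edgeR's trended dispersion, was 12.3%, and this spread may be technical. The scripts were tested on simulated data. Alternatives were other scalings, filters, tests (DESeq2 1.42.0, limma 3.58.1 voom), a correction for GC content and length, a replicate block and leaving out each library. Named members are, per subfamily, the most abundant and the one with the smallest p, any past the adjusted threshold, and a fixed set of 15; for partners and transcripts, the 3 smallest p-values per direction. The members, lists and rules were chosen with earlier results of these data known. Some members are counted in the totals but not reported individually here.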

Additional observations from a re-analysis of the deposited data

Results flagged for a closer look

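The levels of the 34 members, the 10 subfamilies and the named partners and transcripts were screened for an AM6545 library far from the other 3 by Dixon's rule, and 2 of 56 values met it, where chance gives 2.8. Kcns2, a silent subunit gene, had 32.1 CPM in AM6545 E. Its remaining AM6545 libraries ranged from 24.2 to 25.2 CPM, and the vehicle libraries from 21.3 to 29.0 CPM. Kcne3, a small partner subunit gene, had 0.941 CPM in AM6545 E. The range was 0.384 to 0.458 CPM for B, D and F and 0.161 to 0.443 CPM with vehicle.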

How the results depend on the processing

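The count of members with an adjusted p under 0.05 was 0 under every scaling, filter, test, block and correction tried, and 0 to 3 when each library was left out in turn, with 3 only without vehicle E. The count at an unadjusted p under 0.05 (5 members) was 10 with limma-voom, 3 with the correction for GC content and length, 2 with the replicate block and 1 with both block and correction. Leaving out each library gave 1 (without vehicle B) to 9 (without vehicle E). Of all genes, 24.1% met that threshold with limma-voom, 6.87% with the correction and 6.46% without vehicle B. The share of all genes is not given here for the block, block with correction or the other left-out libraries. Counts at that threshold under those settings, the 9 included, therefore have no background beside them. Partner genes at that threshold (2) were 6 with limma-voom, 0 with the replicate block, 1 with block and correction, and 0 to 5 over the left-out libraries. Members with no overlap between groups (6) were 1 with total counts, 2 with the correction, 3 with block and correction, and 5 to 12 over the left-out libraries, again most without vehicle E. The share of all genes without overlap is given only for the main fit (13.8%). With fewer libraries groups separate more easily for any gene, so these alternative counts cannot be read as a trait of the members. Other potassium channel pore genes at that threshold (5) were 3 with total counts, 9 with limma-voom, 2 with the block, 2 with block and correction, and 1 to 7 over the left-out libraries. Over all genes, the adjusted count of 1 was 205 with DESeq2, 118 with limma-voom, 2 with a mean of at least 50 counts or without robust estimation, 0 with the correction, and 0 to 944 over the left-out libraries. The median log2 fold change of the members stayed below 0 under all 18 alternatives, between -0.114 and -0.0014. Of 396 alternative values of the 22 named members, 359 kept their direction and 3 passed the threshold, all without vehicle E. Replicate letters did not pair the libraries: deviations from the group means correlated at -0.311 to -0.145 for the 3 pairs with the same letter and at -0.174 to 0.331 for the 9 others. With the longest annotated transcript as the length and CPM unchanged, per-length levels moved by more than 1 SD for 8 of the 22 named members. The cause of the other differences between settings was not tested. Depth limits the least abundant members most: Kcnh6 had 10 to 28 counts per library.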

Other observations

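The other potassium channel genes, which encode inward rectifier, two-pore-domain and calcium- or sodium-activated channels, were counted for comparison. None of 29 had an adjusted p under 0.05 by edgeR, and 5 (17.2%) had an unadjusted p under 0.05, all lower with AM6545; over all genes 14.6% met that threshold and 8.7% did so in the lower direction. Of the 29, 25 lay below 0 (86.2%, against 48.6% of all genes), with a median log2 fold change of -0.14, or -0.09 without vehicle B and -0.21 without vehicle E. The smallest p was that of Kcnk12, named after its values were seen, with an adjusted p of 0.0742 by edgeR.

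Kcne2, a small partner subunit gene known from the choroid plexus, had 14.8, 9.39, 19.6 and 4.91 CPM with AM6545 (replicates B, D, E and F) and 10.4, 23.3 and 11.8 CPM with vehicle (B, D and E). The summed level of the 4 choroid plexus markers was 1562, 1106, 1928 and 406 CPM and 1872, 2734 and 1544 CPM in the same order. Both were lowest in AM6545 F and highest in vehicle D.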
